A study of Mus musculus with 18 samples.

Results

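The regional gene expression of brains that lack Nrf2 was described from 9 of the 18 arrays of the series. The 9 arrays were chosen by their titles, which name the Nrf2 knockout: 3 of cortex, 3 of hippocampus and 3 of brainstem. Each region was set against the other 2 regions of the same genotype. The knockout animals were male mice of the 129SV strain kept under unstressed conditions, and each array held total RNA of 1 region. The other 9 arrays held the same 3 regions of male 129SV wild-type mice, 3 arrays each, and were used to check the Nfe2l2 signal and to ask whether a regional difference itself differed between the genotypes. The age of the animals, the part of the gene that was removed and whether 1 animal gave more than 1 region are not given in the sources used here. The design describes the RNAs of a group as independent, so p-values measure the spread between these RNAs.

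Nrf2, encoded by Nfe2l2, is a transcription factor that the Keap1 protein marks for breakdown in resting cells. Under oxidative or electrophilic stress it escapes Keap1, pairs with small Maf proteins and switches on antioxidant and detoxifying genes. Regional identity in the brain is set up largely by other factors. Emx1, Emx2 and Lhx2 pattern the telencephalon, which forms cortex and hippocampus, and the Hox genes and further homeodomain factors pattern the hindbrain. The adult regions then differ in their neurons: cortex and hippocampus hold mostly excitatory pyramidal and granule neurons that load glutamate with VGLUT1, while the brainstem holds the dopamine, noradrenaline and serotonin nuclei, cranial motor nuclei and long myelinated tracts.

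Promoter sequence is shown for 1 leading gene of cortex (Dkkl1), 1 of hippocampus (Lct), 1 that was high in brainstem (Hcrt) and 1 that was low there (Neurod6), because these genes lead the regional differences described below and have a single RefSeq window. Each window holds 250 bases before and 50 bases from the annotated transcript start, on build GRCm38.p6, and is written 5′ to 3′ on the gene's strand. All 4 genes lie on the minus strand: Dkkl1 at chr7:45211834-45212133, Lct at chr1:128328269-128328568, Hcrt at chr11:100762882-100763181 and Neurod6 at chr6:55681214-55681513. Capitals mark matches to 4 motifs searched on both strands: TATAAA (the TATA box), TAATTA (the homeodomain core), CAGATG (an E-box bound by factors of the NeuroD class) and TGACNNNGC (the core of the antioxidant response element that Nrf2 binds).
Dkkl1: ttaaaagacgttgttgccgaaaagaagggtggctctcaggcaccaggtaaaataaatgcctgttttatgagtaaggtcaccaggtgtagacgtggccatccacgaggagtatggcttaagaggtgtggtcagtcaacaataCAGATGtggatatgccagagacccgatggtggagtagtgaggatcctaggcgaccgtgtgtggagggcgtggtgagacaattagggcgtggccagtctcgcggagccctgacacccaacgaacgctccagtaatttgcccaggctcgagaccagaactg
Lct: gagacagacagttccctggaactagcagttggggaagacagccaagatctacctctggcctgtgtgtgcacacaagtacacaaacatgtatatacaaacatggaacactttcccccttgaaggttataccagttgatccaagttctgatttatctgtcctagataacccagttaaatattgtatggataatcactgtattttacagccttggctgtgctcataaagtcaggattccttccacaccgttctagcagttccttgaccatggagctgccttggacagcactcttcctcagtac
Hcrt: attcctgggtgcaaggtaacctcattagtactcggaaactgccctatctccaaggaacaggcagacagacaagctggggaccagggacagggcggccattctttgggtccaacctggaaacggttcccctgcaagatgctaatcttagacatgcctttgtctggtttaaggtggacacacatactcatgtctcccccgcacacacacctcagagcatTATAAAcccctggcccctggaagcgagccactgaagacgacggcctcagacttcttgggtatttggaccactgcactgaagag
Neurod6: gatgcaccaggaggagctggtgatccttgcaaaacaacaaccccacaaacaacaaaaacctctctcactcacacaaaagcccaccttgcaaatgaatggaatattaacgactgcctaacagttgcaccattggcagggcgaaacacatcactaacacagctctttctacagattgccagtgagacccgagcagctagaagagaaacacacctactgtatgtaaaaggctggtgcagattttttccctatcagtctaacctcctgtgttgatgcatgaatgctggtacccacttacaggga
The Dkkl1 window held 1 match, CAGATG starting at base -109 from the start, and the Hcrt window held 1 match, TATAAA starting at base -33. The Lct and Neurod6 windows held 0 matches to the 4 motifs. Among all 22862 windows of genes with 1 window, 14.8% held TATAAA, 5.45% TAATTA, 17.4% CAGATG and 12.3% TGACNNNGC. Among the 1155 windows of genes that were higher in knockout brainstem than in both other regions, the shares were 9.35%, 2.94%, 14.8% and 15.5% in the same order, beside 8.72%, 2.83%, 11.9% and 14.4% of the 9223 windows of all genes tested. A match describes the letters of the window and no binding was measured.

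Values are given as levels: log2 of the background-subtracted array intensity minus the 75th percentile of that array, so that 1 unit is a 2-fold difference in intensity and 0 is the 75th percentile itself. Levels of different genes come from different probes and were not compared. The check of the labels came first. The Nfe2l2 probe read -8.04, -8.42 and -7.40 in knockout cortex, -3.63, -5.86 and -4.50 in knockout hippocampus and -7.36, -6.52 and -4.97 in knockout brainstem, against 0.76 to 1.35 on the 9 wild-type arrays. Every knockout array lay far below every wild-type array, and a second Nfe2l2 probe gave -4.09 to -8.26 on the knockout arrays, against 0.10 to 0.74 on the wild-type arrays. Within the knockout the residual signal was not equal: the probe was well above background on 3 of 3 hippocampal arrays, on 0 of 3 cortical arrays and on 1 of 3 brainstem arrays. Hippocampus was at least 3.30-fold higher than cortex (adjusted p = 0.019). Throughout, "at least" compares a region with the detection limit of arrays on which the probe was not well above background.

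Between 65.3% and 74.2% of the spots of a knockout array were well above background, 0 spots were saturated and 21930 genes could be tested. Of these, 14528 had a gene symbol. The other 7402 were array identifiers without a symbol that are counted as genes throughout. Whether some of them repeat another gene was not tested. The number of arrays limits the precision. Some arrays stood apart from their group. The mean level of 13 choroid plexus markers was -1.76, -0.91 and -3.96 in cortex, 0.36, -3.05 and -2.51 in hippocampus and -2.86, -3.08 and -0.64 in brainstem, and 0 of the 13 differed from both other regions in any region. Ttr, the thyroid hormone carrier made by that epithelium, read 0.69, 1.78 and -3.55 in cortex, 3.20, -2.13 and -1.55 in hippocampus and -3.74, -4.74 and 1.98 in brainstem, so its level followed single arrays and not regions. Hippocampus 1 was the highest hippocampal array for several brainstem genes given below, though not for brainstem genes as a set. Of the 2332 genes that were higher in brainstem, hippocampus 1 was the highest for 763 (32.7%) and hippocampus 3 for 946 (40.6%). Hippocampus 2 was the highest hippocampal array for 360 of the 501 genes that were higher in cortex (71.9%), and brainstem 3 was the highest brainstem array for striatal genes. Counts of distinct genes are therefore given with and without hippocampus 1, hippocampus 2 and brainstem 3. The cortex arrays lay on slides 4 and 5, which held no other knockout array, so cortex and slide cannot be told apart within the knockout. Slide 2 held hippocampus 1 and brainstem 3, and within it 7079 of the 7089 genes called between brainstem and hippocampus had the same sign (99.9%), where both arrays are also part of the fit that called the genes.

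Brainstem was the region furthest from the others. The first principal component over 21912 genes took 52.0% of the variance and set the 3 brainstem arrays, at 87.5, 84.1 and 69.7, apart from all hippocampal and cortical arrays, which lay below 0. The second took 20.2% and set hippocampus, at 43.3, 26.5 and 49.1, apart from cortex. No region's arrays overlapped another's, brainstem 3 lay nearest to the other regions on the first component, and hippocampus 2 was the hippocampal array nearest to cortex on the second. Array correlations were 0.978 to 0.994 within a region, 0.969 to 0.982 between hippocampus and cortex, and 0.945 to 0.963 between brainstem and the other regions.

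**Figure D1:**
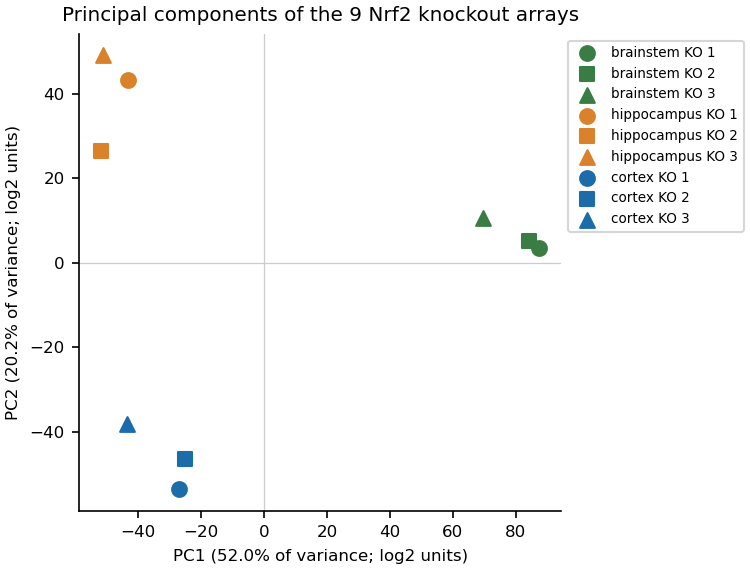
First principal component (horizontal axis, 52.0% of variance) against the second (vertical axis, 20.2%) of the 9 knockout arrays, in log2 units. Each point is 1 array, with colour for the region and circle, square and triangle for replicates 1, 2 and 3. The brainstem arrays lie at 69.7 to 87.5 on the first axis and all others below 0, and the second axis parts hippocampus from cortex.

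A gene was called when limma's adjusted p was under 0.05, and was termed distinct to a region when it was called in the same direction against each of the other 2 regions. Of the 21930 genes, 7379 were called for brainstem against the mean of the other regions (33.6%), 4763 for hippocampus (21.7%) and 3273 for cortex (14.9%). For cortex 1714 were higher (7.82%) and 1559 lower (7.11%). Between pairs of regions, 7089 genes were called for brainstem minus hippocampus (32.3%), 3621 higher (16.5%) and 3468 lower (15.8%). For brainstem minus cortex 5952 were called (27.1%), 3102 higher (14.1%) and 2850 lower (13%). For hippocampus minus cortex 2051 were called (9.35%), 1001 higher (4.56%) and 1050 lower (4.79%). Distinct genes numbered 4275 in brainstem (19.5%), of which 2332 were higher (10.6%) and 1943 lower (8.86%). Hippocampus had 1172 (5.34%), 666 higher (3.04%) and 506 lower (2.31%). Cortex had 795 (3.63%), 501 higher (2.28%) and 294 lower (1.34%). With another background correction the cortical split was 528 higher and 144 lower. No pair of regions differed in 13080 genes (59.6%). Without hippocampus 1 the distinct genes numbered 3335 in brainstem, 563 in hippocampus and 387 in cortex. Without hippocampus 2 they numbered 3414, 938 and 680, and without brainstem 3 they numbered 4897, 1391 and 983, each in the same order of regions. Without hippocampus 1, calls numbered 958 for hippocampus minus cortex and 2783 for hippocampus against the mean of the other regions.

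Cortex was marked by a small set of genes with wide differences. Among the 501 genes that were distinctly higher in cortex, 235 were over 2-fold and 74 over 4-fold higher than in each other region. Among genes detected on all 9 arrays the list of cortical genes was led by Dkkl1, a secreted Dickkopf-like protein known from developing sperm. Dkkl1 read 3.15, 2.93 and 2.74 in cortex, against -1.20, 0.11 and -1.47 in hippocampus and -2.22, -1.99 and -2.49 in brainstem. All cortical arrays lay above all others, and hippocampus 2 was the nearest of those. Cortex exceeded the mean of the other regions by 4.48 ± 0.32 (log2 difference ± standard error; adjusted p = 1.1e-04), and was 13.8-fold above hippocampus and 36.0-fold above brainstem.

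Several of the other leading cortical genes are best known from muscle. Trim54, a ubiquitin ligase of the sarcomere, read 0.12, 0.08 and -0.25 in cortex, against -4.58, -1.14 and -4.82 in hippocampus and -4.22, -3.92 and -3.92 in brainstem. Hippocampus 2 stood more than 3 units above the other hippocampal arrays, and the groups still did not overlap. Myl4, the atrial and embryonic myosin light chain, read 1.89, 2.12 and 1.99 in cortex, against -1.40, -0.80 and -1.93 in hippocampus and -2.15, -1.92 and -2.31 in brainstem (difference 3.75 ± 0.22, adjusted p = 5.8e-05). Tcap, which caps titin at the sarcomere's edge, exceeded the other regions by 3.56 ± 0.41 (adjusted p = 8.4e-04). Chrdl1, an antagonist of bone morphogenetic proteins that astrocytes secrete, read 0.70, 0.19 and 0.14 in cortex, against -3.12, -2.08 and -2.78 in hippocampus and -4.28, -4.11 and -2.98 in brainstem (difference 3.57 ± 0.33, adjusted p = 3.2e-04). The T cell surface receptor gene Cd6, the meiosis gene Mei1 and the proton channel gene Otop2 completed the leading 8, with differences of 4.05 ± 0.31, 3.76 ± 0.37 and 3.22 ± 0.21. A second, dimmer Cd6 probe gave smaller differences, -0.965 for hippocampus minus cortex and -0.70 for brainstem minus cortex. For the same contrasts a second Myl4 probe gave -3.21 and -3.89, and a second Chrdl1 probe -2.61 and -2.65.

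A further 18 genes were detected on all 3 cortical arrays and on 0 of the other 6, of which 16 were distinctly higher there. As these genes were picked for detection in cortex alone, the count of 16 partly restates that choice. S100a5, a calcium-binding protein known from olfactory neurons, read -1.42, 0.58 and -1.65 in cortex, against -7.14, -6.46 and -7.31 in hippocampus and -7.36, -7.66 and -7.22 in brainstem, where it was not well above background. Cortex was at least 48.8-fold above hippocampus and at least 41.7-fold above brainstem, and cortex 2 was the highest of its arrays by about 2 units. Ocm, the calcium buffer oncomodulin, read -3.88, -3.22 and -4.16 in cortex and was at least 6.68-fold above hippocampus and at least 5.50-fold above brainstem. Adcy10, the soluble adenylyl cyclase, Erfe, a hormone that restrains hepcidin, and Rgs18, a regulator of G-protein signalling, met the same rule with smaller margins.

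The list of 28 tested layer and projection neuron markers was higher in cortex as a group: 16 were called higher and 0 lower against the mean of the other regions, with a median difference of 0.83, beside 7.82% of all genes called higher and a median of -0.04 over all genes. Of the 28, 8 were distinctly higher in cortex, beside 2.28% of all genes. The lists, here and below, were chosen with earlier results of these data known. Their counts describe the lists and are not independent support. Rspo1, a secreted activator of Wnt signalling, read 3.27, 3.02 and 2.61 in cortex, against -0.06, -0.15 and 0.37 in hippocampus and 1.90, 1.88 and 2.10 in brainstem (difference 1.96 ± 0.17, adjusted p = 2.8e-04). Cplx3, a complexin of subplate neurons, read -0.24, -0.03 and -0.11 in cortex, against -1.90, -1.51 and -3.16 in hippocampus and -2.09, -2.25 and -3.23 in brainstem (difference 2.23 ± 0.37, adjusted p = 0.005). For both genes the cortical arrays lay above all others.

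Other layer markers were distinctly lower in brainstem and were detected in both cortex and hippocampus. Fezf2, which specifies subcortical projection neurons, read -1.26, -1.06 and -0.72 in cortex, against -0.25, -0.33 and -0.76 in hippocampus and -5.48, -5.58 and -5.98 in brainstem, so cortex and hippocampus overlapped and brainstem, detected on 2 of 3 arrays, was low. Crym, a thyroid hormone-binding protein, read 3.61, 3.58 and 4.15 in cortex, against 5.48, 5.45 and 5.76 in hippocampus and 1.25, 0.65 and 2.25 in brainstem, and was distinctly higher in hippocampus and distinctly lower in brainstem. Tbr1, the factor of corticothalamic neurons, read -0.13, -0.43 and 0.05 in cortex, against -1.77, -1.28 and -1.65 in hippocampus and -6.75, -5.49 and -5.09 in brainstem, and was detected on 2 of 3 brainstem arrays.

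Genes that were low in cortex were led by Lhx9, a LIM homeodomain factor of thalamus and midbrain. Lhx9 read -5.61, -5.71 and -5.16 in cortex, against -0.51, -1.03 and -0.14 in hippocampus and 0.07, 0.02 and 0.15 in brainstem. The cortical arrays lay more than 4 units below all others, and the difference was -5.25 ± 0.20 (adjusted p = 1.6e-05). P2rx5, an ATP-gated channel, was lower in cortex by a difference of -3.05 ± 0.18, and Lrp2, the endocytic receptor megalin, by a difference of -2.30 ± 0.24 (adjusted p = 5.8e-05 and 5.6e-04). C1ql2, a synaptic C1q-like protein of dentate granule cells, and Amigo2, an adhesion protein of the CA2 and CA3 fields, were also lower in cortex, with differences of -3.10 ± 0.35 and -1.97 ± 0.20. The serotonin receptor gene Htr5b read -3.26, -3.88 and -3.41 in cortex, against -1.24, -1.67 and -1.35 in hippocampus and -1.57, -1.61 and -1.68 in brainstem, with the cortical arrays below all others.

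Hippocampus had more distinct genes than cortex. Of its 666 distinctly higher genes, 366 were over 2-fold and 60 over 4-fold above each other region. Among genes with a symbol, 372 were distinctly higher in hippocampus and 398 in cortex, and 411 and 197 were distinctly lower. Cortex thus had more distinctly higher genes with a symbol. Spink8, a serine protease inhibitor of CA1 pyramidal neurons, read 2.56, 2.14 and 3.24 in hippocampus, against -2.0, -1.60 and -0.98 in cortex and -3.42, -3.93 and -3.66 in brainstem (difference 5.25 ± 0.28, adjusted p = 3.3e-05). Lct, the gene of the milk-sugar enzyme lactase and a marker of dentate granule cells, read 2.87, 2.17 and 3.11 in hippocampus, against -1.19, -0.65 and -1.19 in cortex and -2.58, -2.67 and -2.60 in brainstem (difference 4.53 ± 0.21, adjusted p = 3.2e-05). Every hippocampal array lay above every other array for both genes, with hippocampus 2 the lowest of the 3. The same order held for Il16, a cytokine precursor, and Klk8, the secreted protease neuropsin, whose differences were 3.48 ± 0.19 and 3.11 ± 0.19 (adjusted p = 3.3e-05 and 4.7e-05). Fibcd1, a membrane receptor for acetylated sugars, read 0.36, 0.05 and 0.69 in hippocampus, against -3.73, -2.80 and -2.43 in cortex and -2.33, -2.84 and -2.60 in brainstem.

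**Figure D2:**
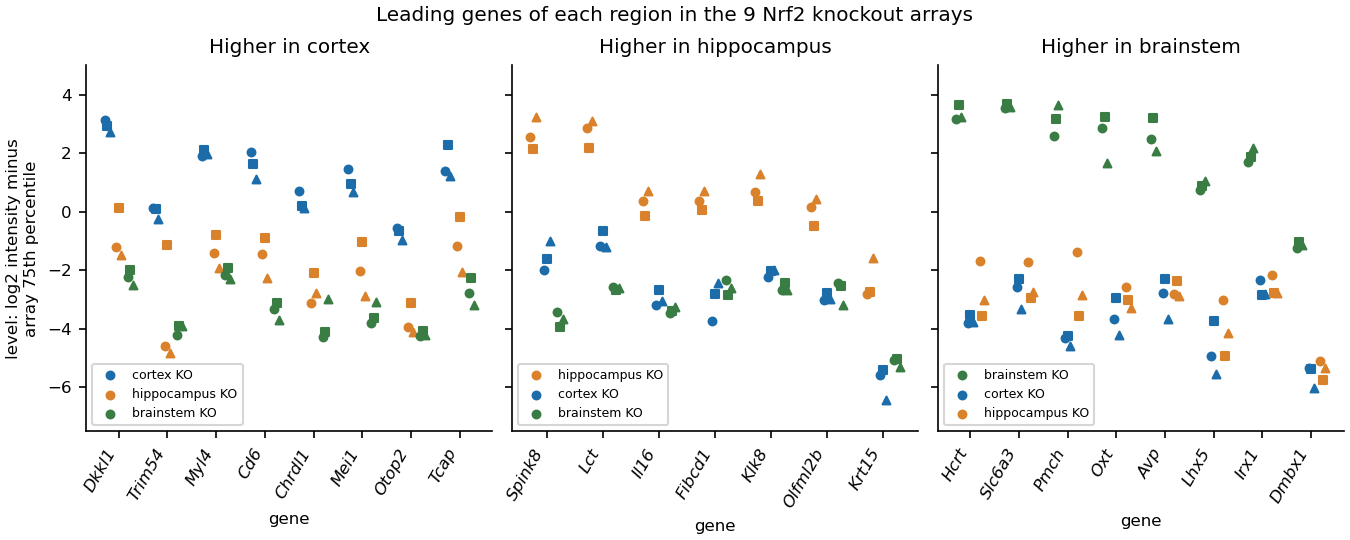
Levels (vertical axis, log2 intensity minus the array's 75th percentile) of leading genes of each region (8 of cortex, 7 of hippocampus and 8 of brainstem) among genes detected on all 9 knockout arrays (horizontal axis). Each point is 1 array, with circle, square and triangle for replicates 1, 2 and 3. Every array of the named region lies above every other array, and hippocampus 2 is the highest hippocampal array for the 8 cortical genes.

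Subfield markers of hippocampus were tested as a list of 28. Of these, 22 were called higher and 2 lower in hippocampus, with a median difference of 1.95, beside 10.6% of all genes called higher and a median of 0.02 over all genes. Of the 28, 15 were distinctly higher, beside 3.04% of all genes. Dsp, the desmosomal protein desmoplakin and a marker of dentate granule cells, read 0.69, -0.12 and 0.21 in hippocampus, against -4.83, -3.76 and -5.09 in cortex and -5.80, -4.63 and -4.84 in brainstem, a difference of 5.09 ± 0.36 (adjusted p = 7.8e-05), with 2 of 3 brainstem arrays above background. C1ql2 read 0.34, -0.50 and 0.16 in hippocampus, against -5.09, -4.18 and -3.58 in cortex and -1.94, -2.35 and -2.83 in brainstem, and the 3 regions did not overlap. Rgs14, a regulator of G-protein signalling in CA2, read 3.43, 3.31 and 3.71 in hippocampus, against 2.34, 2.61 and 2.56 in cortex and -0.64, -0.97 and -0.02 in brainstem. The markers named here for the dentate gyrus (Dsp, C1ql2), CA1 (Spink8, Fibcd1) and CA2 (Rgs14) were each distinctly higher. Amigo2, a list member of the CA2 and CA3 fields, was not. Its hippocampal and brainstem arrays overlapped, with a brainstem minus hippocampus difference of -0.15. Coch, named as the exception after its values were seen, was the 1 member that was distinctly lower, at -2.90, -1.83 and -3.30 in hippocampus, against 0.13, -0.49 and -0.19 in cortex and -1.49, -1.48 and -0.97 in brainstem. Leaving out any 1 array left 21 to 23 members called higher.

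In hippocampus 68 genes were detected on all 3 arrays and on 0 of the other 6, of which 41 were distinctly higher there. The count of 41 likewise partly restates the choice of genes by detection. C4bp, a plasma protein that restrains complement, read -2.49, -2.71 and -1.96 in hippocampus, against -7.78, -7.35 and -7.59 in cortex and -7.71, -7.57 and -8.86 in brainstem, where it was not well above background. It was at least 16.0-fold above cortex and at least 14.2-fold above brainstem. Krt79, a keratin, was at least 8.04-fold and 7.12-fold above cortex and brainstem. Slc9a4, a sodium-proton exchanger, and Fgg, the fibrinogen gamma chain, met the same rule. Ror1, a Wnt5a receptor, read -4.05, -4.58 and -4.52 in hippocampus, against -6.93, -8.05 and -8.80 in cortex and -7.72, -8.90 and -8.87 in brainstem, and was at least 4.01-fold and 3.55-fold above them. The test of the regional contrast between the genotypes did not call Ror1 (limma adjusted p = 1).

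The genes with the widest deficits in hippocampus included Foxp2 and Th. Foxp2, a forkhead factor of deep cortical layers and medium spiny neurons, read -3.21, -3.20 and -4.27 in hippocampus, against 0.17, -0.61 and -1.03 in cortex and 0.35, 0.46 and 1.05 in brainstem (difference -3.62 ± 0.33, adjusted p = 2.0e-04). Th, the rate-limiting enzyme of catecholamine synthesis, read -4.20, -5.66 and -5.54 in hippocampus, against -2.67, -1.71 and -2.83 in cortex and -0.06, 0.15 and -0.28 in brainstem (difference -3.90 ± 0.36, adjusted p = 2.1e-04). In both cases every hippocampal array lay below every other array. Adra1b, an adrenergic receptor, was lower by a difference of -2.49 ± 0.17 (adjusted p = 7.0e-05). Of 18 tested genes for monoamine synthesis, storage and uptake, 10 were called lower in hippocampus and 11 in cortex against the mean of the other regions, beside 11.1% and 7.11% of all genes. Both means include brainstem, where 13 of the 18 were called higher. Only 1 was distinctly lower in hippocampus and 2 in cortex. Of 15 tested striatal markers, 10 were called lower in hippocampus and 10 higher in cortex against the mean of the other regions, beside 11.1% and 7.82% of all genes. Of the 15, 7 were distinctly lower in hippocampus, while only 2 were distinctly higher in cortex. Brainstem 3 stood above the other brainstem arrays for the dopamine receptor gene Drd1, named after its values were seen, at -2.13, -3.16 and -0.80. The mean level of the 15 markers was -0.22, -0.21 and -0.57 in cortex, -2.04, -1.92 and -2.12 in hippocampus and -0.86, -1.18 and -0.23 in brainstem. Leaving out 1 array at a time left 5 to 11 markers called higher in cortex, the lowest count without cortex 2, and 6 without hippocampus 1 or cortex 3. Whether the dissections differed in their share of striatum was not tested.

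Brainstem carried the widest differences, and peptide and amine neurons led them. Among its 2332 distinctly higher genes, 958 were over 2-fold and 248 over 4-fold above each other region. Hcrt, the precursor of the arousal peptide orexin, read 3.18, 3.63 and 3.23 in brainstem, against -3.80, -3.54 and -3.76 in cortex and -1.67, -3.56 and -3.01 in hippocampus (difference 6.57 ± 0.35, adjusted p = 5.3e-06). Pmch, the precursor of melanin-concentrating hormone, read 2.58, 3.17 and 3.64 in brainstem, against -4.32, -4.23 and -4.59 in cortex and -1.38, -3.54 and -2.85 in hippocampus (difference 6.62 ± 0.43, adjusted p = 1.1e-05). For both genes the brainstem arrays lay above all others, and hippocampus 1 was the highest of the rest. The dopamine transporter gene Slc6a3 read 3.53, 3.69 and 3.58 in brainstem, against -2.56, -2.30 and -3.33 in cortex and -1.73, -2.95 and -2.75 in hippocampus (difference 6.20 ± 0.30, adjusted p = 3.5e-06). Oxt and Avp, the precursors of oxytocin and vasopressin, exceeded the other regions by 5.86 ± 0.38 and 5.38 ± 0.33. The homeodomain factors Lhx5, Irx1 and Dmbx1 completed the leading 8, with differences of 5.26 ± 0.46, 4.53 ± 0.19 and 4.34 ± 0.19. A second, dimmer Dmbx1 probe did not show the rise. It gave -0.06 for brainstem minus cortex and -0.38 for brainstem minus hippocampus. For the same contrasts a second Irx1 probe gave 3.90 and 2.95.

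Hcrt, Pmch, Oxt and Avp are made by hypothalamic neurons, so the dissection was set beside markers of neighbouring tissue. Of 10 tested hypothalamic and pituitary markers, 9 were called higher in brainstem and 0 lower, with a median difference of 2.86, beside 17.2% of all genes called higher and a median of -0.01 over all genes. The exception, named after its values were seen, was Prl, the pituitary hormone prolactin, which read 0.30, -7.87 and -6.47 in brainstem, against -2.44, -8.45 and -7.00 in cortex and -2.52, -6.21 and -5.18 in hippocampus, and was highest on array 1 of each region. Hcrt, Pmch, Oxt, Avp, Agrp, Pomc, Ghrh and Gnrh1 belong to this list and to that of neuropeptides, so the counts of these lists overlap. Of 11 tested markers of thalamus and habenula, 10 were called higher in brainstem and distinct to it, beside 17.2% and 10.6% of all genes. Their median difference was 3.20. Tcf7l2, a Wnt effector of thalamic neurons, read 2.49, 2.64 and 3.05 in brainstem, against -0.43, -0.72 and -0.85 in cortex and -0.40, -0.66 and -0.69 in hippocampus (difference 3.35 ± 0.16, adjusted p = 3.3e-06). Gbx2, a homeodomain factor of thalamus, read -0.78, -0.85 and -1.02 in brainstem, against -5.76, -5.32 and -6.65 in cortex and -5.88, -6.70 and -7.22 in hippocampus, where 2 and 1 of 3 arrays were above background. All 3 brainstem arrays carried these markers. Of 14 tested cerebellar markers, 12 were called higher in brainstem and 2 lower, beside 17.2% and 16.4% of all genes. The arrays labelled brainstem thus carried markers of hypothalamus and thalamus, and their part in each brainstem count was not tested.

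Hox genes marked the brainstem. Of 28 listed Hox genes on the array, 15 were tested and 2 were detected on all 9 arrays. A gene was tested only if some region detected it on all 3 arrays, so the counts partly restate that filter. The filter also bears on other lists with members not detected on all 9 arrays. Of the 15 tested, 14 were called higher in brainstem and distinct to it, beside 17.2% and 10.6% of all genes. The median difference was 3.75 when members not detected in a region were set at their bound. No leave-out of 1 array changed the count of 14. The mean level of the 15 was -2.61, -3.02 and -2.26 in brainstem, against -7.45, -7.79 and -7.74 in cortex and -6.11, -7.33 and -7.13 in hippocampus. For 13 of the 15 members at least 1 region had no array above background, so the cortical and hippocampal means mark signal near or below detection and have no order. Hoxb5 read 0.84, 0.64 and 1.03 in brainstem, against -8.23, -8.58 and -8.60 in cortex and -4.32, -6.83 and -5.69 in hippocampus. It was well above background on 0 of 3 cortical and 2 of 3 hippocampal arrays, and brainstem was at least 149.0-fold above cortex. Hoxa4 and Hoxd4 were not well above background on any of the 6 other arrays. Brainstem exceeded cortex and hippocampus at least 22.6-fold and 24.3-fold for Hoxa4, and at least 16.7-fold and 17.9-fold for Hoxd4. Hoxa3, named after its values were seen, was the member not called, at -3.74, -3.73 and -3.33 in brainstem, against -4.12, -3.32 and -3.12 in cortex and -3.38, -3.38 and -3.33 in hippocampus.

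Of 39 other listed factors of midbrain, pons and medulla on the array, 29 were tested and 15 were detected on all 9 arrays. The same filter thus limits their counts. Of the 29, 25 were called higher in brainstem, 1 lower and 24 distinctly higher, beside 17.2%, 16.4% and 10.6% of all genes. The median difference was 2.88, or 2.10 with the 10 members undetected in some region at their bound. Foxa2, a forkhead factor of the floor plate and of dopamine neurons, read -1.26, -1.15 and -0.91 in brainstem, against -8.24, -8.58 and -8.63 in cortex and -6.56, -8.63 and -8.49 in hippocampus. It was at least 38.7-fold above cortex and at least 41.7-fold above hippocampus, where it was not well above background. Gata3, a zinc finger factor of serotonin and inhibitory brainstem neurons, read -0.09, -0.12 and -0.26 in brainstem, against -8.13, -8.54 and -8.46 in cortex and -4.36, -8.66 and -6.92 in hippocampus. Of the hippocampal arrays it was well above background on hippocampus 1 alone, and it was at least 74.9-fold above cortex. En2, an engrailed factor of the midbrain-hindbrain boundary, read 0.00, 0.03 and -0.05 in brainstem, against -2.94, -3.31 and -3.75 in cortex and -2.95, -3.27 and -2.81 in hippocampus (difference 3.17 ± 0.18, adjusted p = 6.6e-06). Shox2 and Mab21l2, developmental regulators, and Uts2b, a urotensin-related peptide, were likewise detected in brainstem only among the 9 arrays, with lower bounds of 12-fold, 11.1-fold and 11.1-fold over cortex.

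Genes of forebrain excitatory neurons were low in brainstem. Of 24 tested genes of that list, 24 were called lower in brainstem and 22 were distinct to it, beside 16.4% and 8.86% of all genes. The median difference was -2.68. As the list was chosen with earlier results of these data known, the count is not independent support. Neurod6, a bHLH factor of pyramidal neurons, read -3.71, -3.64 and -3.76 in brainstem, against 1.01, 0.33 and 0.63 in cortex and 2.33, 1.99 and 2.84 in hippocampus (difference -5.23 ± 0.20, adjusted p = 1.5e-06). The 3 regions did not overlap, and hippocampus was the highest. Kalrn, an exchange factor that shapes dendritic spines, read 0.63, 0.48 and 0.66 in brainstem, against 4.69, 4.77 and 4.61 in cortex and 4.54, 4.42 and 4.54 in hippocampus (difference -4.00 ± 0.10, adjusted p = 5.8e-07). Ddn, the postsynaptic protein dendrin, Itpka, an inositol trisphosphate kinase of spines, and Nrgn, the calmodulin-binding protein neurogranin, were lower by differences of -4.46 ± 0.24, -4.23 ± 0.28 and -3.17 ± 0.19. Of 20 tested factors that pattern or mark the telencephalon, 16 were called lower in brainstem and 1 higher, beside 16.4% and 17.2% of all genes. Emx1 read -3.78, -3.94 and -3.22 in brainstem, against -0.50, 0.02 and -0.22 in cortex and -0.92, -0.89 and -0.94 in hippocampus, and Lhx2 differed by -2.56 ± 0.14. Six3 was the member called higher, at -3.89, -4.11 and -4.33 in brainstem, against -5.88, -5.37 and -7.08 in cortex and -7.61, -8.23 and -8.26 in hippocampus, with 1 of 3 cortical and 0 of 3 hippocampal arrays above background.

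**Figure D3:**
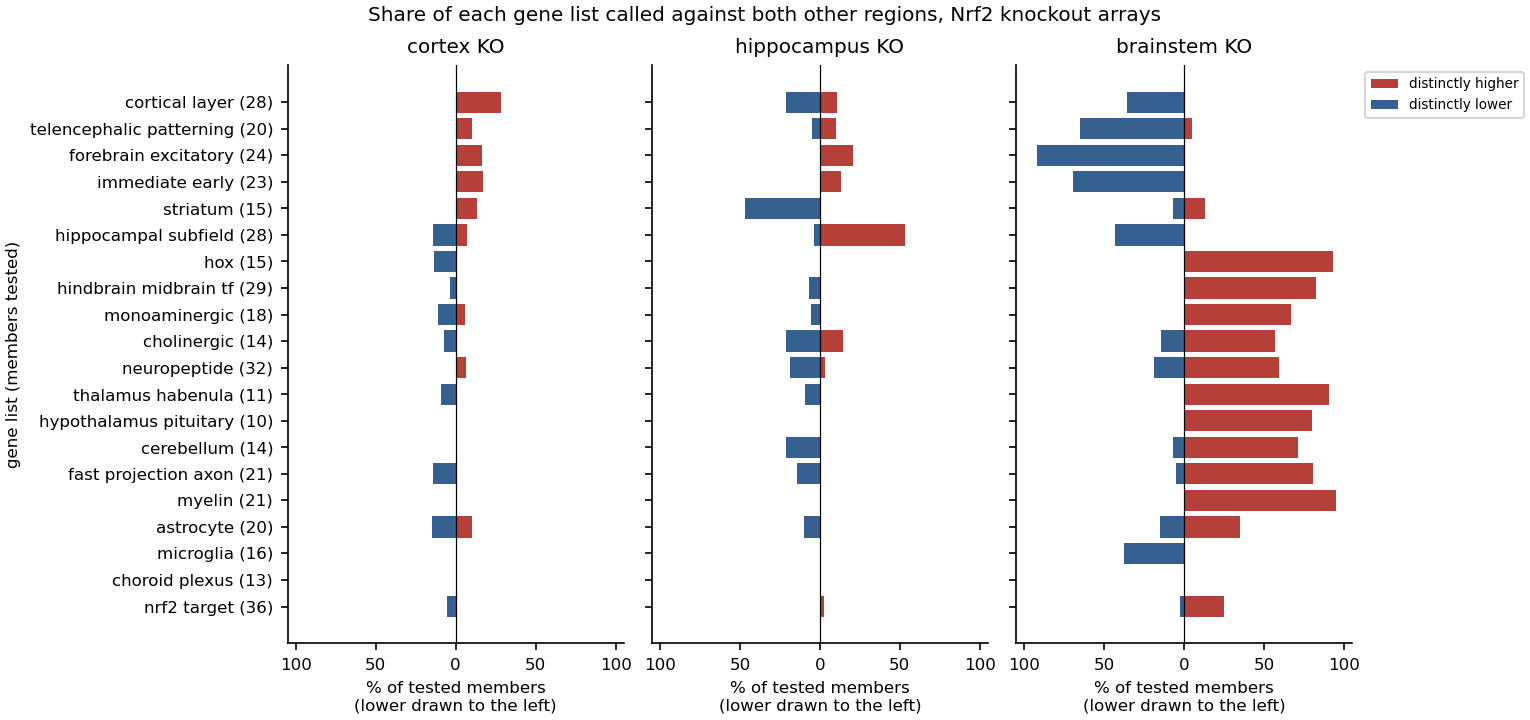
Share of the tested members of each gene list (vertical axis, number tested in brackets) that were called against both other regions, in percent, for cortex, hippocampus and brainstem of the knockout. Bars to the right are distinctly higher members and bars to the left are distinctly lower members. Hox genes (14 of 15) and myelin genes (20 of 21) extend furthest to the right in brainstem, and forebrain excitatory genes (22 of 24) furthest to the left. Over all genes, 10.6% were distinctly higher and 8.86% distinctly lower in brainstem.

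Transmitter systems divided along the same lines. Of 18 tested genes for monoamine synthesis, storage and uptake, 13 were called higher in brainstem and 1 lower, beside 17.2% and 16.4% of all genes. The median difference was 1.70. The serotonin transporter gene Slc6a4 read -0.56, -0.36 and -0.25 in brainstem, against -7.37, -8.42 and -8.40 in cortex and -5.28, -7.73 and -5.33 in hippocampus, and was well above background on 0 of 3 cortical and 2 of 3 hippocampal arrays. The noradrenaline transporter gene Slc6a2 read -1.48, -1.28 and -1.26 in brainstem, against -8.12, -8.48 and -8.49 in cortex and -5.23, -8.62 and -8.25 in hippocampus, where it was detected on hippocampus 1 alone. Tph2, the enzyme of serotonin synthesis in neurons, read -0.53, -0.41 and -0.38 in brainstem, against -4.37, -4.46 and -4.56 in cortex and -4.19, -5.14 and -3.91 in hippocampus (difference 4.0 ± 0.24, adjusted p = 8.0e-06). The brainstem arrays were above all others for each of these genes. Ddc, which forms dopamine and serotonin from their precursors, and Slc18a2, the vesicular monoamine transporter, were higher by 2.98 ± 0.14 and 4.69 ± 0.33.

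Of 15 tested genes of glutamate and GABA release and uptake, 7 were called higher and 5 lower in brainstem, beside 17.2% and 16.4% of all genes. The vesicular glutamate transporters divided by region. Slc17a7 (VGLUT1) read -1.46, -1.54 and -2.12 in brainstem, against 1.76, 2.06 and 2.29 in cortex and 1.94, 2.14 and 2.15 in hippocampus, a difference of -3.77 ± 0.18 (adjusted p = 3.3e-06). Slc17a6 (VGLUT2) ran the other way, at 2.98, 3.01 and 3.08 in brainstem, against -0.38, -0.32 and -0.02 in cortex and -0.62, -0.88 and -1.34 in hippocampus, a difference of 3.62 ± 0.16 (adjusted p = 3.1e-06). The brainstem arrays overlapped no others for either gene. Of 8 tested glycinergic genes, 4 were called higher and 1 lower in brainstem, beside 17.2% and 16.4% of all genes. Glra1, the adult glycine receptor subunit of brainstem and spinal cord, read -1.80, -1.61 and -2.50 in brainstem and was at least 21.4-fold above cortex, with 1 of 3 hippocampal arrays above background. Slc6a9, the glial glycine transporter, was higher by 2.22 ± 0.13, while Gldc, which breaks glycine down, was lower by a difference of -2.83 ± 0.16 (adjusted p = 6.7e-06 and 6.8e-06). Of 18 listed cholinergic genes on the array, 14 were tested and 7 were detected on all 9 arrays. The detection filter described for the Hox genes thus limits their counts too. Of the 14, 9 were called higher in brainstem and 4 lower, beside 17.2% and 16.4% of all genes. The choline transporter gene Slc5a7 read -0.53, -0.53 and -0.17 in brainstem, against -2.98, -3.04 and -3.57 in cortex and -4.30, -5.59 and -4.98 in hippocampus, and was distinctly lower in hippocampus as well.

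Receptor genes were called in both directions. Of 30 tested ionotropic glutamate and GABA-A receptor subunits, 11 were called higher and 7 lower in hippocampus, 5 higher and 10 lower in brainstem, and 5 higher and 3 lower in cortex. Over all genes the shares were 10.6% and 11.1% in hippocampus, 17.2% and 16.4% in brainstem, and 7.82% and 7.11% in cortex, so the brainstem count of higher members was near that background. Gabra5, a subunit of tonic inhibition, read 1.99, 1.80 and 2.33 in hippocampus, against 0.01, 0.09 and 0.36 in cortex and -0.28, -0.31 and -0.20 in brainstem (difference 2.10 ± 0.14, adjusted p = 6.3e-05). Gabrd, a subunit of extrasynaptic receptors, read 4.52, 4.52 and 4.29 in cortex, against 2.80, 3.05 and 2.56 in hippocampus and 2.81, 2.90 and 3.09 in brainstem (difference 1.57 ± 0.13, adjusted p = 2.5e-04). Grin3b, an NMDA receptor subunit known from motor neurons, read 0.64, 0.67 and 0.62 in brainstem, against -2.56, -2.63 and -3.22 in cortex and -2.70, -3.51 and -3.42 in hippocampus (difference 3.65 ± 0.21, adjusted p = 7.1e-06). Each of the 3 genes was above all arrays of the other regions in its own region. Of 19 tested amine receptors, cortex, hippocampus and brainstem had 2, 4 and 4 that were distinctly higher and as many that were distinctly lower, beside 2.28%, 3.04% and 10.6% of all genes higher and 1.34%, 2.31% and 8.86% lower. Drd4 was distinctly higher in cortex, at -1.90, -2.11 and -1.92, against -4.33, -4.00 and -4.38 in hippocampus and -3.67, -3.33 and -3.73 in brainstem. Drd5 was distinctly higher in hippocampus, at -0.99, -1.58 and -0.89, against -3.90, -3.81 and -3.59 in cortex and -2.88, -2.83 and -2.56 in brainstem.

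Of 32 tested neuropeptide precursors, 23 were called higher and 7 lower in brainstem, and 19 were distinctly higher, beside 17.2%, 16.4% and 10.6% of all genes. The list includes most of the tested hypothalamic and pituitary markers, so its counts are not separate from theirs. The median difference was 1.74. Calca, the precursor of calcitonin gene-related peptide, read 0.81, 1.37 and 1.60 in brainstem, against -2.32, -2.49 and -2.12 in cortex and -1.66, -1.74 and -2.22 in hippocampus (difference 3.35 ± 0.20, adjusted p = 8.4e-06). Rln3, the relaxin of the nucleus incertus, was detected in brainstem only, and was at least 5.53-fold above cortex and at least 5.96-fold above hippocampus. Among the 7 called lower was Cort. Cort, the precursor of cortistatin, read -3.85, -3.87 and -4.49 in brainstem, against -0.35, -0.82 and -0.32 in cortex and -0.67, -0.95 and -0.82 in hippocampus (difference -3.41 ± 0.18, adjusted p = 5.2e-06).

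Long-axon and myelin genes were higher in brainstem together. Of 21 tested genes of fast projection neurons, 18 were called higher in brainstem and 1 lower, beside 17.2% and 16.4% of all genes. The median difference was 1.65. Nefh, the heavy neurofilament subunit, read 4.21, 4.43 and 4.46 in brainstem, against 1.32, 1.71 and 1.60 in cortex and 1.79, 1.46 and 1.78 in hippocampus (difference 2.75 ± 0.13, adjusted p = 3.5e-06). Of 21 tested oligodendrocyte and myelin genes, 20 were called higher in brainstem, 0 lower and 20 distinctly higher, beside 17.2%, 16.4% and 10.6% of all genes. Their median difference was 1.61. Hapln2, a link protein of the node of Ranvier, read 0.98, 0.86 and 0.60 in brainstem, against -1.65, -1.34 and -2.28 in cortex and -1.53, -2.05 and -1.37 in hippocampus (difference 2.51 ± 0.23, adjusted p = 7.3e-05). Mog, a surface protein of myelin, read 1.17, 1.14 and 0.98 in brainstem, against -0.86, -0.69 and -0.74 in cortex and -0.84, -1.30 and -0.34 in hippocampus (difference 1.89 ± 0.19, adjusted p = 1.2e-04). The brainstem arrays lay above all others for these 3 genes. In bulk tissue, fewer cells of a type and less RNA per cell cannot be told apart, in this and every list. Enpp2, the secreted phospholipase autotaxin, named after its values were seen, was the member not called, and also varied between arrays of a region, at 4.52, 4.53 and 5.45 in brainstem, against 4.47, 4.96 and 3.92 in cortex and 5.45, 3.18 and 3.88 in hippocampus.

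Astrocyte genes did not move in 1 direction. Of 20 tested, 10 were called higher and 4 lower in brainstem, beside 17.2% and 16.4% of all genes. Agt, the angiotensin precursor, read 4.66, 4.68 and 4.89 in brainstem, against 1.04, 1.08 and 0.92 in cortex and 2.11, 1.95 and 1.97 in hippocampus, and the 3 regions did not overlap (difference 3.23 ± 0.10, adjusted p = 8.0e-07). Slc1a2 and Slc1a3, the glial glutamate transporters, were lower in brainstem by differences of -0.93 ± 0.22 and -0.97 ± 0.16 (adjusted p = 0.01 and 0.0017). Of 16 tested microglia genes, 10 were called lower in brainstem and 0 higher, beside 16.4% and 17.2% of all genes. The median difference was -0.50. P2ry12, the ADP receptor of resting microglia, read -1.51, -1.41 and -0.75 in brainstem, against -0.18, -0.56 and -0.09 in cortex and -0.52, -0.22 and -0.17 in hippocampus (difference -0.94 ± 0.20, adjusted p = 0.0061). The microglial count was 6 without brainstem 1, and 8 to 10 without any other array. In brainstem, 4 of 16 endothelial and mural markers, 4 of 12 ependymal markers, 2 of 12 meningeal markers, 2 of 10 oligodendrocyte precursor markers, 1 of 12 pan-neuronal markers and 1 of 4 erythrocyte markers were called higher, beside 17.2% of all genes. Of the same lists, 4 pan-neuronal markers and 1 each of the endothelial and mural, ependymal and meningeal markers were called lower there, beside 16.4% of all genes. In hippocampus 5 of 12 meningeal and 3 of 4 erythrocyte markers were called lower, beside 11.1% of all genes. In cortex 7 of 12 ependymal markers were called lower, beside 7.11% of all genes.

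**Figure D4:**
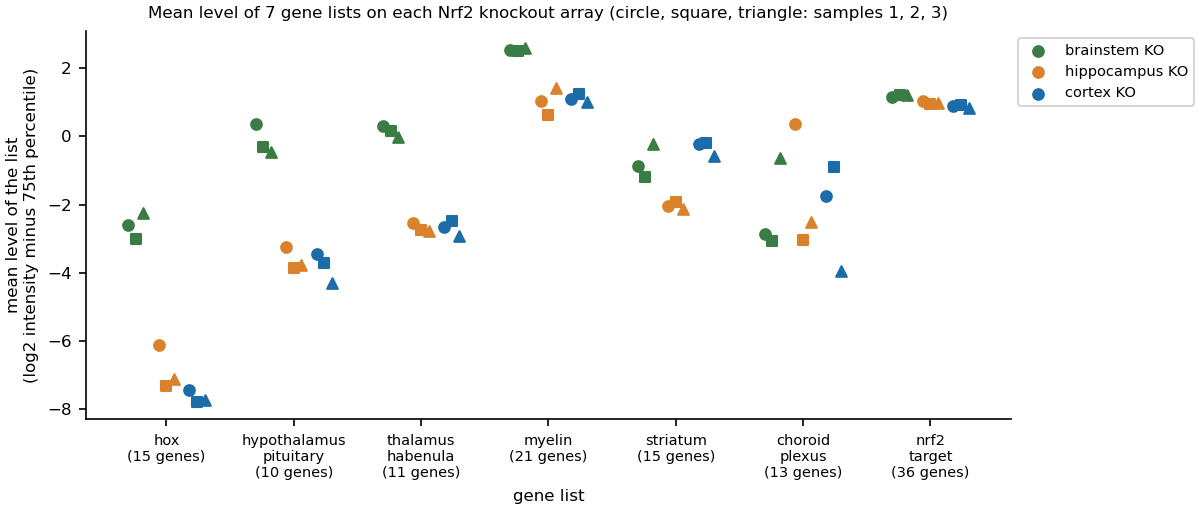
Mean level of the tested members of selected gene lists (vertical axis, log2 intensity minus the array's 75th percentile) on each of the 9 knockout arrays, grouped by region. Each point is 1 array. Hox genes lie at -2.26 to -3.02 in brainstem, and at -6.11 to -7.79, near or below detection, on the other arrays, while choroid plexus markers spread by more than 3 units within cortex and within hippocampus.

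Genes that Nrf2 is known to induce in other settings had a small median difference in brainstem. Of 36 tested, 18 were called higher and 1 lower in brainstem, with a median difference of 0.36, beside 17.2% of all genes called higher. Of the 36, 9 were distinctly higher in brainstem, beside 10.6% of all genes. The count of 18 depended on single arrays: it was 10 without brainstem 2 and 12 without brainstem 1, cortex 2 or hippocampus 2, and at most 15 without any array. Nqo1, the quinone reductase that serves as a standard Nrf2 readout, read -0.97, -0.90 and -1.03 in brainstem, against -1.78, -1.39 and -1.75 in cortex and -1.32, -1.98 and -1.54 in hippocampus (difference 0.66 ± 0.16, adjusted p = 0.013). Brainstem lay above all other arrays by a fraction of a unit. Gclm, the modifier subunit of glutathione synthesis, and G6pdx, the first enzyme of the pentose phosphate pathway, were higher by 0.77 ± 0.15 and 0.98 ± 0.10 (adjusted p = 0.0045 and 1.3e-04).

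The widest regional difference in this list belonged to Gstm6, a mu-class glutathione transferase. Gstm6 read -0.88, -1.01 and -0.75 in hippocampus, against -2.76, -2.58 and -2.45 in cortex and -1.32, -1.23 and -1.55 in brainstem, so the 3 regions did not overlap. It was distinctly higher in hippocampus and distinctly lower in cortex (differences 1.10 ± 0.12 and -1.47 ± 0.12, adjusted p = 4.7e-04 and 2.2e-04). Mu-class genes are similar in sequence, and cross-hybridisation was not tested. Cbr3, a carbonyl reductase, was the member that was lower in brainstem, at 1.90, 1.88 and 2.58, against 3.42, 3.25 and 3.04 in cortex and 2.99, 2.90 and 3.22 in hippocampus. Of the 24 list members with 1 promoter window, 6 held TGACNNNGC (25.0%), beside 14.4% of the genes tested. Of 12 tested repressors, partners and relatives of Nrf2, 3 were called higher in brainstem and 0 lower, near the 17.2% of all genes called higher. Nfe2l3, a relative of Nrf2, read -2.45, -2.48 and -2.51 in brainstem, against -4.18, -4.08 and -3.98 in cortex and -4.08, -4.18 and -3.85 in hippocampus (difference 1.58 ± 0.11, adjusted p = 1.4e-05). Maff, a small Maf protein, was higher by 1.01 ± 0.21 (adjusted p = 0.0056), and Keap1, named as the repressor of Nrf2 whatever its values, was not called in any region, at 2.48 to 3.15 over the 9 arrays.

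Immediate early genes, which neuronal firing switches on, were low in brainstem. Of 23 tested, 19 were called lower and 0 higher there, beside 16.4% of all genes called lower. The median difference was -1.72 (-1.52 with 2 members at their bound). In cortex 14 were called higher and 1 lower, beside 7.82% and 7.11% of all genes. Nr4a1, a nuclear receptor, read 2.48, 3.11 and 3.0 in brainstem, against 5.28, 5.82 and 5.08 in cortex and 4.23, 4.67 and 4.56 in hippocampus, and the 3 regions did not overlap (difference -2.08 ± 0.21, adjusted p = 1.2e-04). Egr4, a zinc finger factor, read -0.73, -0.47 and 1.67 in brainstem, against 3.99, 3.87 and 4.11 in cortex and 2.82, 3.19 and 3.58 in hippocampus, with brainstem 3 about 2 units above the other brainstem arrays. Egr2, of the same family, read -3.97, -3.26 and -2.41 in brainstem, against -0.04, 1.33 and 1.35 in cortex and -2.14, -0.22 and -0.69 in hippocampus, and array 1 was the lowest of each region. Nr4a3, of the same family as Nr4a1, was the member called lower in cortex. It was detected on the 3 hippocampal arrays only, at -5.96, -5.88 and -5.73, and was at least 1.44-fold above cortex and at least 1.28-fold above brainstem.

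The regional differences of the knockout were then set against those of wild-type mice. A test of the regional contrast in knockout minus the same contrast in wild type called 0 of 22672 genes (0%) for cortex, for hippocampus and for brainstem with limma, and an unadjusted p was under 0.05 for 173, 212 and 227 genes. Each is below the 1134 genes that make up 5% of those tested, and the counts were 286, 459 and 374 with the replicate number as a block, again with 0 calls. The reason for these low counts was not tested. A p that misses the threshold does not show that the contrasts were equal. The distinct genes of the knockout could also be read on the wild-type arrays, which their choice did not use. The wild-type arrays of each region lay on the same slides as its knockout arrays. Cortex and slide thus cannot be told apart there either, and hippocampus and brainstem shared slide 2 only. Of the 2332 genes distinctly higher in knockout brainstem, 2331 had the same sign against both other regions in wild type and 2197 were distinct there too (94.2%). The shares distinct in wild type were 91.9% of the 1943 genes lower in brainstem, 82.7% of the 666 higher and 90.1% of the 506 lower in hippocampus, and 92.4% of the 501 higher and 67.3% of the 294 lower in cortex. Of all genes, 16.6% were distinctly higher and 13.9% distinctly lower in wild-type brainstem, 6.14% and 6.32% in hippocampus, and 5.08% and 2.9% in cortex. Over all genes, 24.6% to 40.4% had the matching sign against both other regions in wild type.

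Across the 21930 genes, the knockout and wild-type contrasts correlated with r of 0.963 for brainstem, 0.945 for hippocampus and 0.938 for cortex, as a description over genes that share probes and array processing. The slopes of knockout on wild-type differences were 0.945, 0.937 and 0.950 in the same order. The brainstem minus cortex difference of Hcrt was 7.05 in knockout and 7.27 in wild type, and the hippocampus minus cortex difference of Lct was 3.73 in knockout and 4.55 in wild type. The hippocampus minus cortex difference of Dkkl1 was -3.79 in knockout and -3.61 in wild type.

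**Figure D5:**
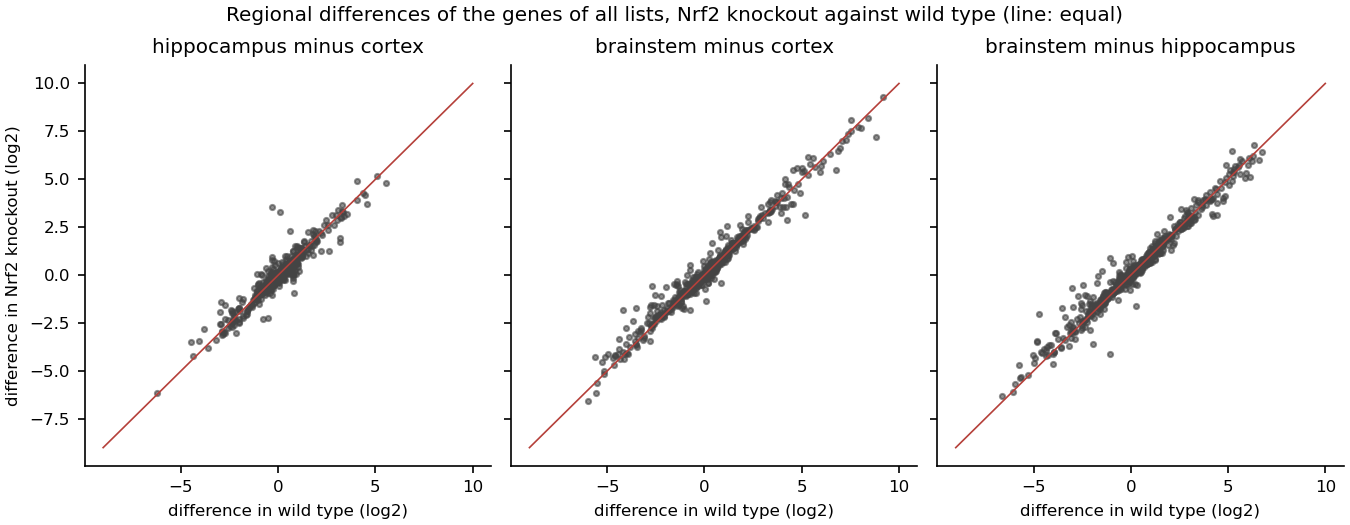
Regional log2 differences of the listed genes in knockout (vertical axis) against wild type (horizontal axis), for hippocampus minus cortex, brainstem minus cortex and brainstem minus hippocampus. Each point is 1 gene and the line marks equal differences. Most points lie along the line from below -5 to above 5, Nfe2l2 and Ror1, undetected in knockout cortex, lie above it in the first panel, and 0 genes passed the test for a difference between the genotypes.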

How the data were processed

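Total RNA of cortex, hippocampus and brainstem was labelled with Cy3 and hybridised to 1-colour Agilent arrays, per the labels' protocols. The deposited scanner files hold, per the file headers, a background-subtracted intensity for each spot from Feature Extraction 10.7.3.1 with annotation on build mm9. Of 45018 spots per array, 43379 were not controls. Groups were taken from the sample labels.

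The deposited intensity was converted to log2, and the 75th percentile of each array was subtracted. Spots marked as non-uniform or population outliers were left out, and spots of a probe were averaged. Probes were tested if every array of some knockout region (3 of 3) read them well above background. Each gene was represented by its kept probe with the highest mean, giving 21930 genes, of which 14528 had a symbol. Other probes of a named gene did not always show the same difference. Contrasts were fitted with limma 3.58.1 in R 4.3.3, with Benjamini-Hochberg adjustment over all genes and a threshold of 0.05. The genotype test used all 18 arrays. The bound behind "at least" is, per array, the higher of the detection limit and the probe's own signal. The files hold no mean spot signal, so the normexp alternative used median signals.

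Named genes were the 8 with the largest smaller difference against both other regions, per region and direction, among genes detected on all 9 arrays. Up to 8 genes detected in 1 region only and up to 8 members of each of 31 lists were added. Some genes that met this rule are not reported here. Exceptions within a list were named after their values were seen. The members and lists were chosen with earlier results of these data known. Promoter sequences came from RefSeq on GRCm38.p6. Alternatives were another background correction, quantile normalization, no filter on dim probes, all 18 arrays in 1 fit, slide and replicate blocks, and leaving out each array. Same-numbered hippocampal and brainstem arrays deviated together (correlations 0.17, 0.30 and 0.38), a hint from the data that these numbers pair arrays, while those with cortex did not all do so. The series-wide table was not used here.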

Additional observations from a re-analysis of the deposited data

How the results depend on the processing

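Over 241 named results, 4239 of 4270 values under an alternative kept their direction and side of the threshold, 30 lost the call, 1 gained it and 0 reversed. Most of these genes were named for wide differences in the main fit to the same arrays, so the count is no independent check. It covers the contrast against the mean of the other regions and not the distinct calls. Without the filter on dim probes, 1325 genes differed between hippocampus and cortex, and distinct genes numbered 499 in cortex and 747 in hippocampus. With all 18 arrays in 1 fit, 5136 genes were called for cortex and 3704 for hippocampus minus cortex, and distinct genes numbered 1414 in cortex and 2104 in hippocampus. Leaving out 1 array at a time gave 2062 to 4019 calls for cortex, 2783 to 5804 for hippocampus and 5626 to 8036 for brainstem. The same left 958 to 2592 calls for hippocampus minus cortex, 4487 to 6790 for brainstem minus cortex and 5119 to 7800 for brainstem minus hippocampus. Distinct genes then ranged from 387 to 983 in cortex, 563 to 1391 in hippocampus and 3251 to 4897 in brainstem. Counts moved by over 1.5 times without cortex 2, hippocampus 1 or hippocampus 3. Hippocampus minus cortex then had 1187, 958 and 1140 calls, distinct genes numbered 469, 387 and 480 in cortex, and 699, 563 and 671 in hippocampus. The calls for cortex fell to 2062 without cortex 2, and those for hippocampus to 2783 and 3122 without hippocampus 1 and 3. The genotype test called 0 to 1 gene per region when 1 array was left out, and 1 unnamed probe for cortex under quantile normalization. The causes were not tested. The labels share replicate numbers without saying what a number marks. Of the 9 same-numbered pairs of arrays, 7 had correlations of deviations above 0.1, with a range of -0.05 to 0.42. All 3 pairs of hippocampus and brainstem did so, and the block gave 8214 calls for brainstem minus hippocampus, beside 7089 without it. With the replicate number as a block, 3825, 5901 and 8355 genes were called for cortex, hippocampus and brainstem, and 0 in the genotype test. With slide as a random block the counts were 2891, 4473 and 7023. Dim probes limit what could be measured: genes not well above background in a region have only a bound there.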
